A study of Mus musculus with 8 samples.

Results

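The genes described here are the mouse protein-coding genes whose symbols begin with Eif or Eef followed by a digit, the names given to eukaryotic translation initiation and elongation factors. The symbols alone selected them, and 66 genes were found among 22367 protein-coding gene records of GENCODE M1 (0.295%). They came from 67 records, since Eef2k had a second record nested in the first and the longest was kept. Most encode subunits of the factors themselves. The same symbols also cover 5 kinase genes, 4 genes for proteins that bind or carry the cap-binding protein eIF4E, and the 4 Argonaute genes, which this annotation still calls Eif2c1 to Eif2c4. A window was drawn for each gene, starting 10 kb upstream of its transcription start site (TSS) and closing 3 kb past its end. A gene counted as having a peak when a peak touched that window by at least 1 bp.

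The peaks mark HA-tagged H3.3 in mouse embryonic stem cells (mESCs). The conditions were Hira-null cells at day 15 of differentiation towards cardiomyocytes, WT cells at day 15, undifferentiated Hira-null cells (day 0) and undifferentiated WT cells (day 0), each with 1 ChIP library and 1 input library and therefore no replicates. The WT line was W9.5 and the Hira-null line was Clone 104, a single clone, and both carried the HA tag on H3.3. Day 15 cultures came from hanging drops and were only in part beating cells, so each day 15 list stands for a mixture, and differences between lists are counts without a test. Native chromatin was cut with micrococcal nuclease and pulled down with an antibody against HA from the 12AC5 hybridoma. The 4 lists held 7332 peaks in Hira-null day 15, 27272 in WT day 15, 17706 in Hira-null day 0 and 22730 in WT day 0 cells, over 7.40, 31.4, 33.2 and 28.5 Mb in that order. Read depth was not known, and longer lists touch more genes, so counts over the 66 genes are given beside the same count over all protein-coding genes. Fewer cells with H3.3 at a place and less H3.3 per cell cannot be told apart.

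Translation starts when eIF2 brings the initiator tRNA to the small ribosomal subunit, helped by eIF1, eIF1A, eIF3 and eIF5, while eIF4E, eIF4G and the helicase eIF4A bind and open the 5′ end of the mRNA. During elongation eEF1A delivers each aminoacyl-tRNA and eEF2 moves the ribosome along the message. Many of the 66 are housekeeping genes, though not all, and the introns of several carry small nucleolar RNAs (snoRNAs). These guide chemical modification of ribosomal RNA. H3.3 is the histone H3 variant that replaces H3 when no DNA is being copied, and the chaperone HIRA loads it at many transcribed genes. Whether H3.3 lies at these genes with and without HIRA is what the lists compare.

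Sequences are shown for the centres of 5 peaks on which the results below turn, each 240 bases of mm9 read in the direction of the gene. Those at Eif4a2 and Eef1a1 lie past the gene end and the one at Eif5 lies in an intron, and at all 3 places each of the 4 lists held a peak. The one at Eif4a1 lies upstream of the TSS where only the WT lists, at both days, held a peak. CG dinucleotides are in capitals in these 4 stretches. Eif4a2 is shown at chr16:23114500-23114739 (plus strand, 0.411 kb past the gene end, within the body of the neighbouring Rfc4), Eef1a1 at chr9:78324321-78324560 (minus strand, 1.81 kb past the end), Eif5 at chr12:112785585-112785824 (plus strand, 9.39 kb into the gene) and Eif4a1 at chr11:69488442-69488681 (minus strand, midpoint at -2.64 kb from the TSS, within Senp3).
Eif4a2: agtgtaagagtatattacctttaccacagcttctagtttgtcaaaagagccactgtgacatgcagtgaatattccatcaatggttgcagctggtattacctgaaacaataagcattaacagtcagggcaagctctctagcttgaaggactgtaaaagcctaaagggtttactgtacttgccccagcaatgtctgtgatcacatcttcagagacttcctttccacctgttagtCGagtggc
Eef1a1: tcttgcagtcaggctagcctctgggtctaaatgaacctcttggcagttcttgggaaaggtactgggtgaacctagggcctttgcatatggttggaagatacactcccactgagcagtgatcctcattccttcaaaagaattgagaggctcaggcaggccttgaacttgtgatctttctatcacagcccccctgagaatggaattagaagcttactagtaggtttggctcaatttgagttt
Eif5: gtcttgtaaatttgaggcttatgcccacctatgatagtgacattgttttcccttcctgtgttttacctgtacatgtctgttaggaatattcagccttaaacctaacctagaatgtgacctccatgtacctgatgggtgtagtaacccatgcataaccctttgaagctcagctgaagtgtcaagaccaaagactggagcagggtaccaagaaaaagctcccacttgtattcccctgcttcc
Eif4a1: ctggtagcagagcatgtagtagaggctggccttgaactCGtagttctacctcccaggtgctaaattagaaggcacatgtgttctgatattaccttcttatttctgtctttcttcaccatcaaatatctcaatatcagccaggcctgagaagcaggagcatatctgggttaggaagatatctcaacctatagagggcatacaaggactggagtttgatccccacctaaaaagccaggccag
The 4 stretches held 1, 0, 0 and 1 CG dinucleotides in the order printed, at a GC content of 42.9%, 46.7%, 44.2% and 45.4%. Over all peaks at these genes the median GC content was 43.0% in Hira-null day 15, 42.4% in WT day 15, 44.8% in Hira-null day 0 and 43.8% in WT day 0 cells, against 42.1%, 42.6%, 44.7% and 45.0% over the whole lists.

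The last stretch is of another kind, and a peak overlapped it in all 4 lists, in WT day 15 cells only in part. It lies in an intron of Eif2ak4, which encodes GCN2, the kinase that phosphorylates eIF2 when amino acids run short, at chr2:118270716-118270955 on the plus strand, 56.5 kb into the gene. Copies of TGAGTCA, the letters of a consensus site of AP-1, are in capitals.
Eif2ak4: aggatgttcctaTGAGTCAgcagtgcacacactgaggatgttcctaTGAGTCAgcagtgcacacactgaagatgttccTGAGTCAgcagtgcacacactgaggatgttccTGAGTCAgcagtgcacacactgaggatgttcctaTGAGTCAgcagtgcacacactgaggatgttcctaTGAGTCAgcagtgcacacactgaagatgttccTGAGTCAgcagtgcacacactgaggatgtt
The stretch is a tandem repeat and held 7 copies of TGAGTCA. Both strands of the whole peak held 36 copies in Hira-null day 15, 23 in WT day 15, 35 in Hira-null day 0 and 35 in WT day 0 cells. Of the central 240 bases of every peak, 5.59% held at least 1 copy on either strand in the Hira-null day 15 list, 6.68% in WT day 15, 4.87% in Hira-null day 0 and 5.92% in WT day 0. The motif was chosen after the sequence was read, and a match of letters is not a binding site.

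H3.3 peaks were found at translation factor genes more often than at protein-coding genes at large in every list. At day 15, 20 of the 66 genes (30.3%) had a peak in Hira-null cells and 50 (75.8%) in WT cells, against 15.2% and 39.4% of all protein-coding genes. At day 0, 20 genes (30.3%) had a peak in Hira-null cells and 40 (60.6%) in WT cells, against 20.3% and 35.4%. Window length was similar, with a median of 31.1 kb for these genes and 28.4 kb for all genes. The genes held 48 peaks in Hira-null day 15 and 164 in WT day 15 cells, and 27 peaks in Hira-null day 0 and 106 in WT day 0 cells.

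Peak number was compared gene by gene. At day 15, 5 genes (7.58%) had more peaks in Hira-null cells and 43 (65.2%) had more in WT cells, against 5.41% and 34.8% of all protein-coding genes, and 5 had the same number and 13 had none. The WT list was also the longer one by 3.72 times overall and by 5.16 times for peaks in any gene window, and at translation factor genes it held 3.42 times as many peaks as the Hira-null list. With the 7332 highest-scoring peaks of each list, the day 15 counts came to 12 genes with more in Hira-null and 22 with more in WT cells (18.2% and 33.3%, against 10.4% and 13.5% of all genes), 5 equal and 27 with none, from 48 Hira-null and 58 WT peaks. The WT excess was then smaller, but genes with more peaks in WT still outnumbered those with more in Hira-null cells. At day 0, 5 genes (7.58%) had more peaks in Hira-null cells and 35 (53.0%) had more in WT cells, against 9.54% and 27.5% of all genes, with 4 equal and 22 without a peak. With lists of equal length these were 4 and 21 genes (6.06% and 31.8%, against 6.22% and 13.2%). At day 0 the whole WT list was 1.28 times as long as the Hira-null list, and 2.25 times for peaks in any gene window, whereas at translation factor genes WT held 3.93 times as many. The Hira-null day 0 list had the smallest part of its peaks at these genes, 0.152%, compared with 0.655% of the Hira-null day 15, 0.601% of the WT day 15 and 0.466% of the WT day 0 list. Only 36.5% of Hira-null day 0 peaks touched any gene window at all, against 59.1%, 82.0% and 64.1% in the other lists in the same order.

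**Figure D1:**
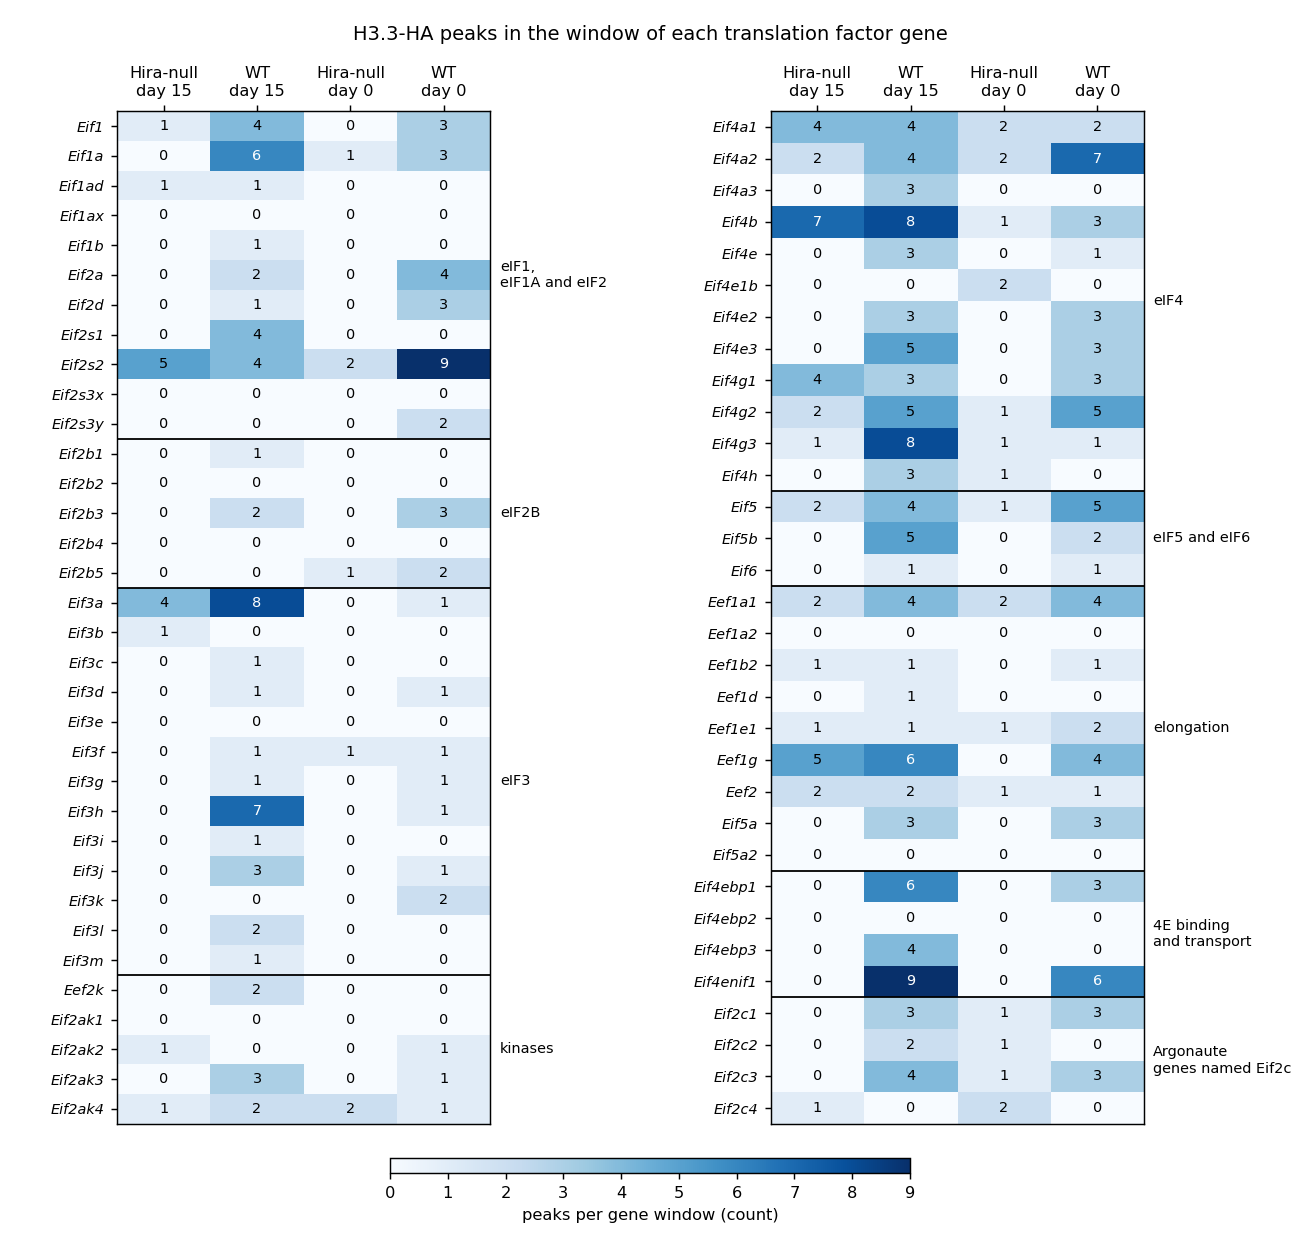
Number of H3.3-HA peaks (count, colour and printed figure) touching the window of each of the 66 genes, with the 4 peak lists as columns and genes grouped by role. Counts reach 9, at Eif4enif1 in WT day 15 and at Eif2s2 in WT day 0, and most entries of the Hira-null columns are 0.

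Peaks in both genotypes, like peaks in each single list, were more frequent at these genes than at genes at large. How far the shared counts follow from those of the single lists was not tested. At day 15, 3 genes (4.55%) had a Hira-null but no WT peak, against 4.10% of all genes, 33 had a WT but no Hira-null peak, against 28.3%, and 17 (25.8%) had peaks in both, against 11.1%. The 3 genes with a Hira-null day 15 peak alone were Eif2ak2, Eif2c4 and Eif3b. At day 0, 4 genes (6.06%) had a Hira-null but no WT peak, against 6.80%, 24 (36.4%) had a WT but no Hira-null peak, against 21.9%, and 16 (24.2%) had both, against 13.5%. The 4 genes with a Hira-null day 0 peak alone were Eif2c2, Eif2c4, Eif4e1b and Eif4h.

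Peaks in all 4 lists were found at 11 genes (16.7%), against 4.24% of all protein-coding genes: Eef1a1, Eef1e1, Eef2, Eif2ak4, Eif2s2, Eif4a1, Eif4a2, Eif4b, Eif4g2, Eif4g3 and Eif5. A further 5 genes, Eef1b2, Eef1g, Eif1, Eif3a and Eif4g1, had a peak in every list but Hira-null day 0 (7.58%, against 3.96% of all genes). The most frequent pattern was a peak in WT cells at both days and in Hira-null cells at neither, at 16 genes (24.2%, against 11.5%), which included Eif4e, Eif5a and Eif4enif1. Another 11 genes (16.7%, against 11.3%), among them Eef1d, Eif2s1 and Eif4a3, had a peak in WT day 15 cells alone. No list had a peak at 9 genes (13.6%), against 42.7% of all genes. They were Eef1a2, Eif1ax, Eif2ak1, Eif2b2, Eif2b4, Eif2s3x, Eif3e, Eif4ebp2 and Eif5a2.

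Peaks covered more of the gene itself and of the 3 kb past its end at translation factor genes than at genes at large, in every list. Each gene was divided at the middle of its length into a 5′ part and a 3′ part. In Hira-null day 15 cells peaks covered 10.1% of the 3 kb past the gene end and 3.56% of the 3′ part, but 1.37% of the 5′ part and 0.224% of the 3 kb upstream, against 1.86%, 0.414%, 0.226% and 0.538% over all protein-coding genes. In WT day 15 cells the same zones were covered to 21.6%, 7.78%, 3.74% and 9.29%, against 5.34%, 1.98%, 2.23% and 5.07%. In Hira-null day 0 cells the values were 5.23%, 2.53%, 0.900% and 2.45%, against 1.49%, 0.857%, 0.852% and 0.839%. In WT day 0 cells they were 17.7%, 5.97%, 2.71% and 5.36%, against 3.24%, 1.36%, 1.46% and 3.59%. The zone past the end was the most covered one at translation factor genes in all 4 lists, and over all genes it was so in both day 15 lists too. In proportion to all genes, the 5′ part in Hira-null day 15 cells was raised by more than the zone past the end. Peaks 10 to 3 kb upstream covered 0.408%, 3.69%, 1.94% and 4.60% in Hira-null day 15, WT day 15, Hira-null day 0 and WT day 0 cells, against 0.665%, 2.57%, 1.61% and 2.37% over all genes.

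**Figure D2:**
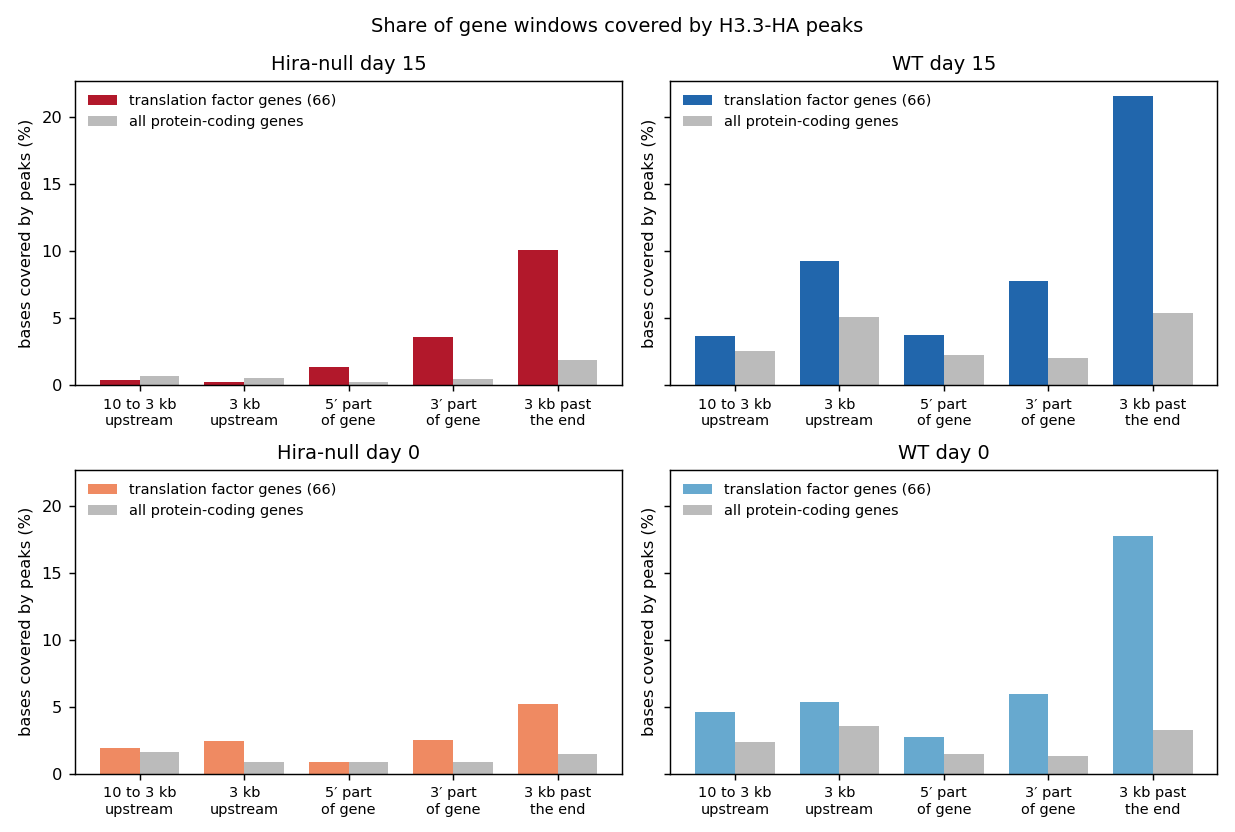
Share of bases covered by peaks (%) in 5 zones of the gene window, for the 66 translation factor genes (coloured bars) and all protein-coding genes (grey bars), 1 panel per list. The bar for the 3 kb past the gene end is the highest in each panel, at 10.1%, 21.6%, 5.23% and 17.7%, while the 3 kb upstream are covered to 0.224% in Hira-null day 15 and 9.29% in WT day 15 cells.

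Upstream and downstream peaks were also compared between genotypes. At day 15, Hira-null cells had 3 peaks with their midpoint upstream of a TSS, at Eef1a1, Eif2ak2 and Eif4b, of which 2 (66.7%) had no overlapping WT peak, and 12 peaks within 3 kb past a gene end, of which 1 (8.33%, at Eef1e1) had no overlapping WT peak, against 55.7% upstream and 42.3% downstream over all genes. WT cells had 30 upstream peaks, of which 29 (96.7%) were without an overlapping Hira-null peak, and 25 peaks past a gene end, of which 17 (68.0%) were without one. For all genes the WT shares were 91.8% upstream and 79.7% downstream. In Hira-null day 0 cells 4 of 8 upstream peaks and 1 of 4 downstream peaks had no overlapping WT peak, against 63.4% and 59.0% over all genes. In WT day 0 cells 18 of 22 upstream peaks (81.8%) and 14 of 18 downstream peaks (77.8%) had no overlapping Hira-null peak, near the 85.4% and 82.7% of all genes. Within 500 bp of the gene end, a distance chosen after the values were seen, there was a peak at 10 genes (15.2%) in Hira-null day 15, 25 (37.9%) in WT day 15, 7 (10.6%) in Hira-null day 0 and 19 (28.8%) in WT day 0 cells, against 2.89%, 8.77%, 1.75% and 5.37% of all genes. Within 500 bp of the TSS the counts were 1 (1.52%), 11 (16.7%), 3 (4.55%) and 6 (9.09%), against 0.648%, 8.66%, 0.849% and 6.44%. When all lists were held to their 7332 highest-scoring peaks, Hira-null day 15 cells had 1 gene with a peak at the start and 10 with one at the end, WT day 15 cells had 5 and 16, Hira-null day 0 cells had 2 and 5, and WT day 0 cells had 1 and 12. Over all genes the shares at the start and the end were then 0.648% and 2.89%, 2.97% and 4.28%, 0.371% and 0.970%, and 2.12% and 2.64% in the same order of lists.

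Wide peaks were few at these genes but a larger part of their peaks than of peaks in any gene window. Peaks of 4 kb or more made up 8.33% of their peaks in Hira-null day 15 (4 peaks), 3.66% in WT day 15 (6), 14.8% in Hira-null day 0 (4) and 4.72% in WT day 0 cells (5), against 1.73%, 1.09%, 4.98% and 1.31% of the peaks in any gene window. Median widths were 937, 995, 1982 and 1296 bp, against 803, 966, 1487 and 1097 bp. The score is the peak caller's own and is -10 times the log10 of the peak p-value. It grows with depth and was ranked only within a list. Peaks among the top 10% of their list by score numbered 9 of 48 (18.8%) in Hira-null day 15, 24 of 164 (14.6%) in WT day 15, 5 of 27 (18.5%) in Hira-null day 0 and 20 of 106 (18.9%) in WT day 0 cells.

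The eIF4 group, which recognises and unwinds the mRNA, had the most peaks in total among the role groups of the 66 genes in each list. These totals are not per gene. The groups differ in size, and the eIF4 group holds the longest genes, Eif4e3 (409 kb) and Eif4g3 (215 kb). Of the 12 eIF4 genes, 6 had a peak in Hira-null day 15, 11 in WT day 15, 7 in Hira-null day 0 and 9 in WT day 0 cells. The shares of all protein-coding genes were 15.2%, 39.4%, 20.3% and 35.4% in that order. By share of genes with a peak, another role group stood higher in each list. Eif4a2, which encodes one of the paired eIF4A helicases (chr16:23107517-23114209, plus strand), carried the highest-scoring peak of these genes in 3 lists, in Hira-null day 15 cells together with Eif4g2. The peak was 8449 bp wide with a score of 3100 in Hira-null day 15 cells (rank 1 of 7332, a score that 14 peaks of this list share), 9103 bp with 1740 in WT day 15 (rank 6), 5076 bp with 561 in Hira-null day 0 (rank 522) and 7722 bp with 1254 in WT day 0 cells (rank 18). In all 4 lists it ran through the 3′ part of Eif4a2 and across the gene end, over intronic snoRNAs (SNORA4, SNORA63 and Snora81), and it reached into Rfc4. Upstream the lists were unlike. Hira-null day 15 had no upstream peak at Eif4a2, WT day 15 had 3 (midpoints at -4.81, -1.88 and -0.852 kb), Hira-null day 0 had 1 (-9.38 kb) and WT day 0 had 5, between -9.31 and -3.33 kb.

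Its paralogue Eif4a1 (chr11:69480438-69485925, minus strand) also hosts snoRNAs. Hira-null day 15 cells had 4 peaks, all inside the gene or past its end, with scores of 217 to 441. WT day 15 cells had 3 peaks in those places, the highest with a score of 847, and another of 5116 bp and a score of 689.7 with its midpoint at -2.64 kb, where the sequence above was read. At day 0 a peak of 1526 bp and a score of 109.9 lay upstream in Hira-null cells and one of 3656 bp and a score of 338 in WT cells. The body of Eif4a1 held peaks in all 4 lists. The stretch upstream held one in every list except Hira-null day 15, although the printed centre fell in the WT peaks alone. Eif4a3, whose product belongs to the exon junction complex, had 3 peaks in WT day 15 cells and none elsewhere.

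Eif4g2 (chr7:118211499-118226544, minus strand), whose product DAP5 drives cap-independent initiation, had the widest peak of all at these genes, 11818 bp with a score of 3100 in Hira-null day 15 cells, beside one of 650 bp in the 5′ part. WT day 15 cells had a peak of 6450 bp and a score of 1089 in the same stretch with 3 smaller ones in the gene and a promoter peak (score 184, midpoint -1.02 kb) that no Hira-null peak overlapped. Hira-null day 0 cells had 1 peak of 7486 bp with a score of 236, and WT day 0 cells had 5 peaks of which the highest scored 401. Eif4g1, the main scaffold of the cap complex, had 4 peaks in Hira-null day 15 and 3 in WT day 15 cells, none in Hira-null day 0 and 3 in WT day 0 cells, and at day 15 all 7 lay in the 3′ part. Eif4b, a cofactor of the helicase, had 7 peaks in Hira-null day 15, the highest Hira-null count among the 66 genes, 8 in WT day 15, 1 in Hira-null day 0 and 3 in WT day 0 cells. These were narrower, at 438 to 1999 bp.

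The cap-binding protein genes were not alike. Eif4e had no peak in Hira-null cells at either day, against 3 in WT day 15 and 1 in WT day 0 cells. Eif4e2, which encodes a cap-binding repressor, had 3 in WT cells at each day, among them one of 4650 bp and a score of 587 at day 0. Eif4e3 had 5 and 3 over a gene of 409 kb, the longest of the set. None of these 3 genes had a Hira-null peak, but with lists of 7332 peaks the WT peaks left were 1 for Eif4e, 0 for Eif4e2 and 3 for Eif4e3 at day 15, and 0, 1 and 0 at day 0. Eif4e1b, which in mouse is an oocyte form, was the reverse, with 2 peaks in Hira-null day 0 cells (scores of 309.6 and 158) and none in the other lists. Eif4h had 1 peak in Hira-null day 0 cells, far upstream, and 3 in WT day 15 cells.

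**Figure D3:**
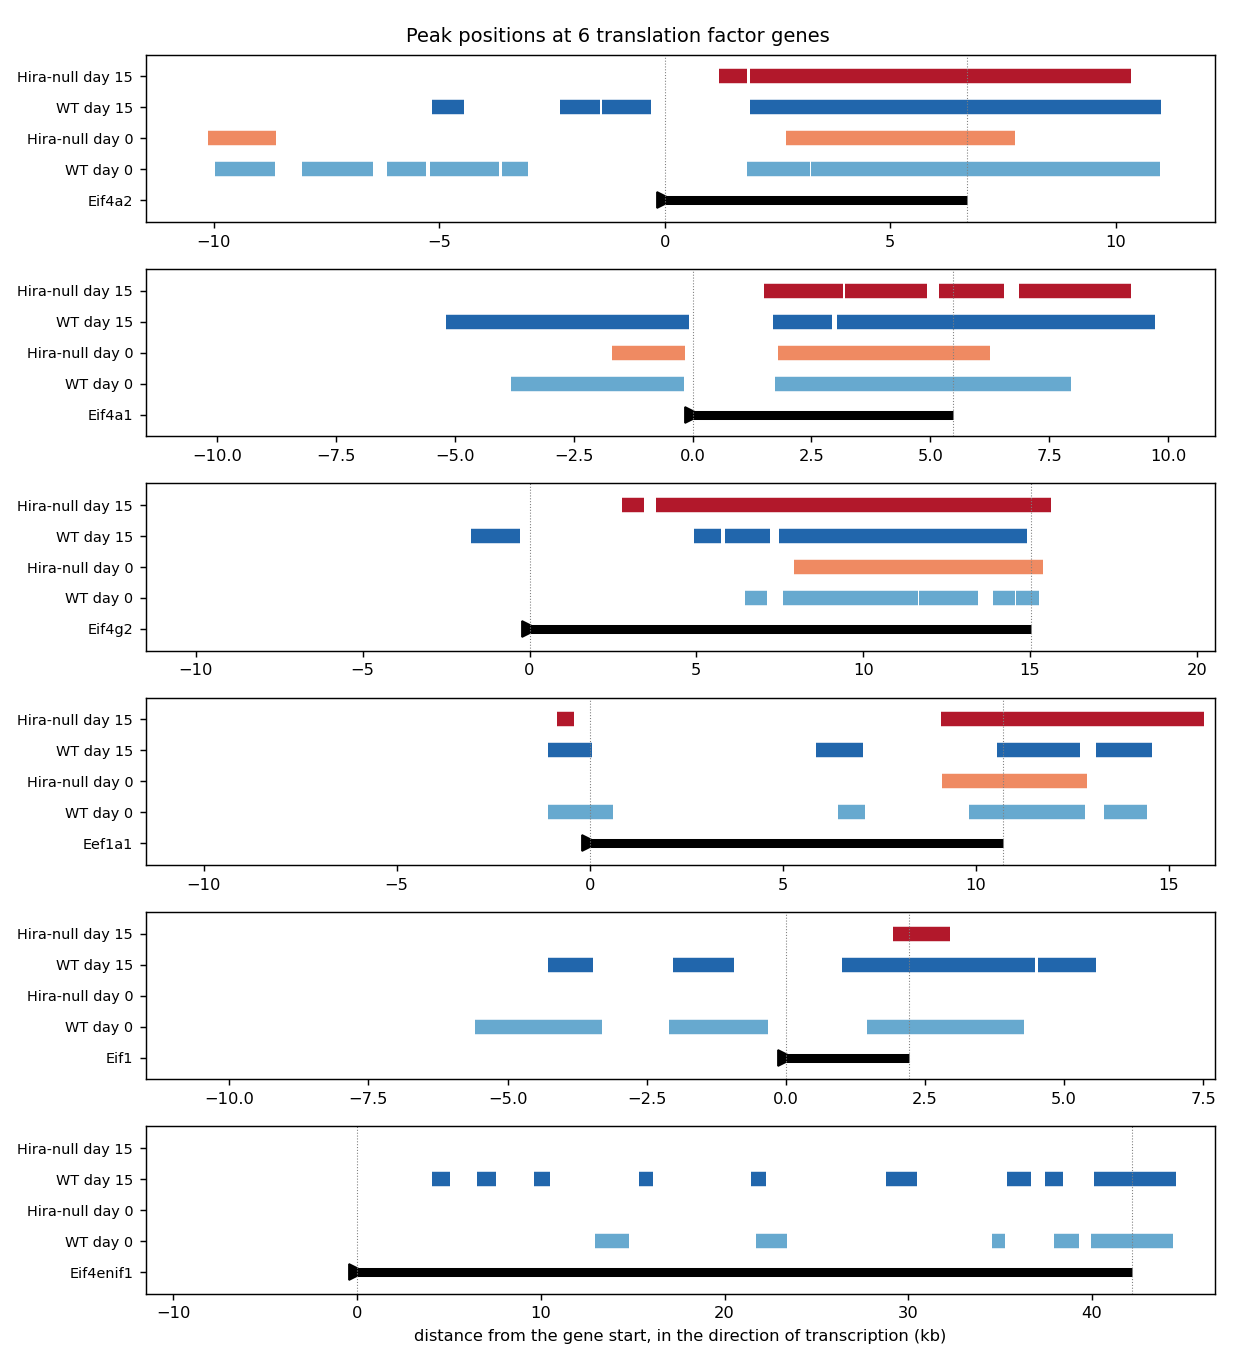
Peaks of the 4 lists (coloured bars) at Eif4a2, Eif4a1, Eif4g2, Eef1a1, Eif1 and Eif4enif1 by distance from the gene start (kb), with the gene as a black bar read from left to right and dotted lines at its start and end. Each of the first 5 genes has a Hira-null day 15 peak on its 3′ part or past its end, Eif4a2, Eif4a1, Eif4g2 and Eef1a1 have another in the 5′ part or upstream, and Eif4enif1 has WT peaks only, 9 at day 15 and 6 at day 0.

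The group of eIF1, eIF1A and eIF2 covered 11 genes, with Eif1ad, Eif2a and Eif2d placed there by their names. At day 15, 3 had a peak in Hira-null and 8 in WT cells. At day 0, 2 had one in Hira-null and 6 in WT cells. The shares were 27.3%, 72.7%, 18.2% and 54.5%, against 15.2%, 39.4%, 20.3% and 35.4% of all genes. Eif1, which guards start codon choice, had 1 peak in Hira-null day 15 cells, of 1014 bp with a score of 93.2 just past its end. WT day 15 cells had 4 peaks there, 2 of them upstream, and the one at the end was 3481 bp wide with a score of 654. Hira-null day 0 cells had none and WT day 0 cells had 3, 2 of them upstream. Eif1ad had 1 peak past its end in each day 15 list (scores of 276 in Hira-null and 213 in WT cells) and none at day 0. Eif1a had 1 peak in Hira-null day 0 cells, with its midpoint at -6.79 kb, against 6 in WT day 15 and 3 in WT day 0 cells. Eif2a had 2 peaks in WT day 15 and 4 in WT day 0 cells.

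The subunits of eIF2 itself were not alike. Eif2s2, the beta subunit, had 5 peaks in Hira-null day 15, 4 in WT day 15, 2 in Hira-null day 0 and 9 in WT day 0 cells, and all 5 in Hira-null day 15 cells lay in the 3′ part or past the end. In this annotation its window also lies in the long record of the agouti gene. Eif2s1, the alpha subunit that the stress kinases phosphorylate, had 4 peaks in WT day 15 cells and none in the other 3 lists. The gamma subunit has an X-linked and a Y-linked gene. Eif2s3x had no peak in any list and Eif2s3y had 2 in WT day 0 cells (scores of 76.6 and 50.5). Peaks were rare on chromosome X in general, since 1.93%, 0.644%, 6.12% and 2.25% of all its genes had one in Hira-null day 15, WT day 15, Hira-null day 0 and WT day 0 cells. Of the 5 genes for eIF2B, the exchange factor of eIF2, 0, 2, 1 and 2 had a peak in the same order. The shares of all protein-coding genes were 15.2%, 39.4%, 20.3% and 35.4%. Counts over 5 genes are too small to set this group apart from genes at large.

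Of 13 genes for eIF3, the largest initiation complex, 2 had a peak in Hira-null day 15 (15.4%), 10 in WT day 15 (76.9%), 1 in Hira-null day 0 (7.69%) and 7 in WT day 0 cells (53.8%), against 15.2%, 39.4%, 20.3% and 35.4% of all genes. The share in Hira-null day 15 cells was thus that of genes at large. The 2 were Eif3a and Eif3b, which encode core subunits. Eif3a, a snoRNA host, had 4 peaks in Hira-null day 15 (scores of 79.6 to 167) and 8 in WT day 15 cells, none in Hira-null day 0 and 1 in WT day 0 cells. All 4 Hira-null peaks lay in the 3′ part or past the end, and 3 of them overlapped a WT peak. Eif3b, by contrast, had 1 intronic peak in Hira-null day 15 cells (score 137) and no WT peak. Eif3h had no peak in Hira-null cells, against 7 intronic peaks in WT day 15 and 1 in WT day 0 cells over a gene of 78.9 kb. The single Hira-null day 0 peak was at Eif3f.

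The 3 genes of eIF5, eIF5B and eIF6, which act at subunit joining, all had WT peaks at both days, and Eif5 alone had Hira-null peaks. At Eif5 (chr12:112776312-112794270, plus strand) a peak of 6655 bp and a score of 365 lay in the gene in Hira-null day 15 cells, centred 9.20 kb from the TSS. It met a peak of 5717 bp with a score of 66.5 in WT day 15, one of 6076 bp with 487 in Hira-null day 0 and 3 in WT day 0 cells, the highest of 3330 bp with 438. All but the last were wider than 4 kb. In WT day 15 cells this broad peak ranked 20163 of 27272, whereas in the other lists it ranked 645 of 7332, 882 of 17706 and 194 of 22730.

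Elongation covered 9 genes, with Eef1e1 placed there by its name. At day 15, 5 had a peak in Hira-null and 7 in WT cells. At day 0, 3 had one in Hira-null and 6 in WT cells. The shares were 55.6%, 77.8%, 33.3% and 66.7%, against 15.2%, 39.4%, 20.3% and 35.4% of all genes. Eef1a1 (chr9:78326256-78336958, minus strand), the form of eEF1A used in most cells, had a peak of 6822 bp and a score of 2291 centred 1.81 kb past its end in Hira-null day 15 cells, rank 23 in that list. It overlapped 2 peaks in each of the other lists, of 2157 and 1446 bp with scores of 459.9 and 327 in WT day 15, of 2252 and 1490 bp with 285 and 89.6 in Hira-null day 0, and of 3014 and 1107 bp with 476 and 135 in WT day 0 cells. Eef1a1 was also the one gene with a Hira-null day 15 peak within 500 bp of its TSS, of 443 bp and a score of 60.8. Its paralogue Eef1a2, which replaces it in muscle and neurons, had no peak in any list, and neither had Eif5a2, the paralogue of Eif5a. Eif5a, which helps the ribosome past difficult sequences, had no peak in Hira-null cells and 3 in WT cells at each day.

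The genes for the exchange complex of eEF1A differed among themselves. Eef1g, the gamma subunit, had 5 peaks in Hira-null day 15 and 6 in WT day 15 cells, none in Hira-null day 0 and 4 in WT day 0 cells. All 5 Hira-null peaks lay in the 3′ part of the gene or beyond its end, whereas WT day 15 cells also had 2 upstream peaks and 1 in the 5′ part. Eef1b2, the beta subunit, had 1 peak at its end in Hira-null day 15 (score 131), WT day 15 (367) and WT day 0 cells (98.4). Eef1d, the delta subunit, had 1 peak in WT day 15 cells (score 79.0). Eef2, the translocase, had 2 narrow peaks in Hira-null day 15 (scores of 50.7 and 66.7) and 2 in WT day 15 cells (135 and 56.6), 1 in Hira-null day 0 (118) and 1 in WT day 0 cells (81.0, upstream).

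The regulators differed among themselves. Of the 4 genes for eIF4E-binding and transport proteins none had a Hira-null peak at either day, whereas 3 had a peak in WT day 15 and 2 in WT day 0 cells. Eif4enif1, which carries eIF4E into the nucleus and represses bound mRNA, had 9 peaks in WT day 15 cells, one of 4460 bp with a score of 672 at the gene end, and 6 in WT day 0 cells. Eif4ebp1, the repressor of eIF4E that mTOR controls, had 6 and 3. The neighbouring Drg1 overlaps the Eif4enif1 peaks in this annotation. These genes lie on chromosomes 11 and 8, where WT day 15 peaks were dense in general. All 6 translation factor genes of chromosomes 8 and 11 had a WT day 15 peak, and so did 70.0% of all genes there. Of the 5 kinase genes, 2 had a peak in Hira-null day 15, 3 in WT day 15, 1 in Hira-null day 0 and 3 in WT day 0 cells. All 4 Argonaute genes had a peak in Hira-null day 0 cells, against 1 in Hira-null day 15, 3 in WT day 15 and 2 in WT day 0 cells. Their windows were long, with a median of 76.6 kb. The Hira-null day 0 peak of Eif2c2 had its midpoint at -10.8 kb and was lost when peaks were assigned by midpoint. Eif2c4 had 2 Hira-null day 0 peaks. In one, with a score of 84.7, 31.0% of the 20-base words recurred, and the other scored close to the lowest score of the list. Among the Argonaute genes Eif2c3 had the highest-scoring peak, an intronic one with a score of 537 in Hira-null day 0 and 165 in WT day 0 cells.

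Some of the peaks shared by lists lay on repeated sequence such as that of Eif2ak4. As a measure, the share of 20-base words of a peak that occur again in the same peak was taken, and peaks with at least 10% were set apart. The measure was added after the Eif2ak4 sequence had been seen. It set apart 5 of 48 peaks (10.4%) in Hira-null day 15, 4 of 164 (2.44%) in WT day 15, 5 of 27 (18.5%) in Hira-null day 0 and 4 of 106 (3.77%) in WT day 0 cells, against 19.9%, 1.53%, 11.2% and 3.97% of the whole lists. At Eif2ak4 the intronic peak scored 641 in Hira-null day 15, 60.1 in WT day 15, 613 in Hira-null day 0 and 527 in WT day 0 cells, with 47.7%, 95.3%, 43.8% and 62.5% of its words repeated. An intronic peak of Eif4g3, 66.2 kb into the gene, had 71.9%, 69.3% and 78.1% repeated words in Hira-null day 15, WT day 15 and Hira-null day 0 cells. The other Hira-null day 15 peaks of this kind were at Eef1e1 (43.1%, score 616), Eif2c4 (42.0%, score 169.9) and Eif2ak2 (39.1%, score 78.6).

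**Figure D4:**
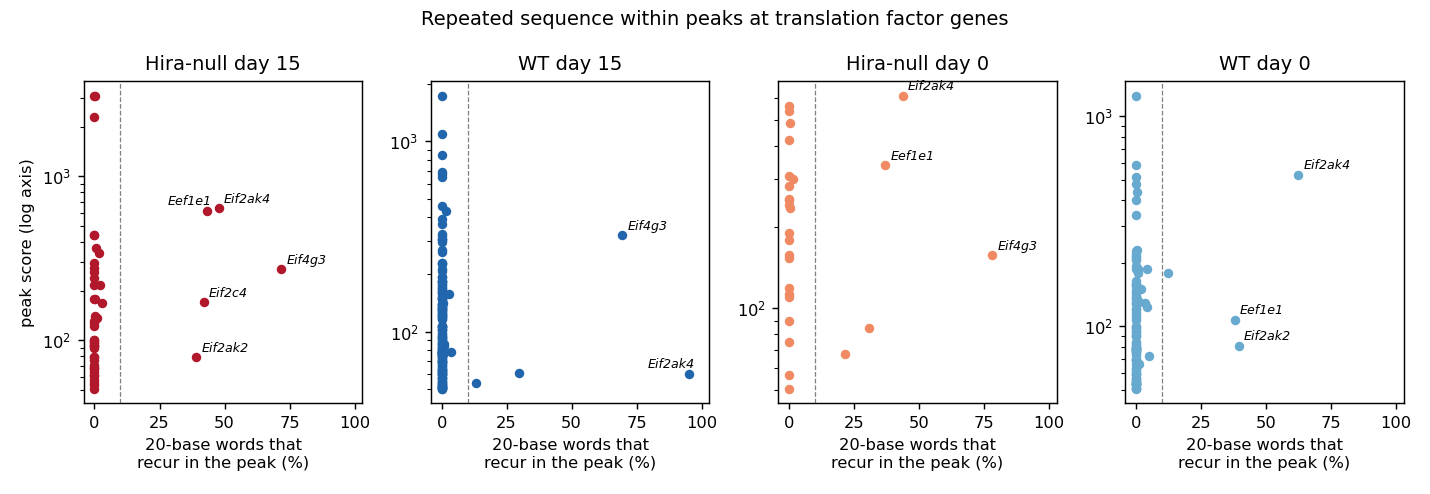
Score of each peak at a translation factor gene (log axis, comparable only within a panel) against the share of its 20-base words that recur within the peak (%), 1 panel per list, with a dashed line at 10%. The 5 Hira-null day 15 peaks right of the line belong to Eef1e1, Eif2ak2, Eif2ak4, Eif2c4 and Eif4g3, and the highest scores of that list lie at the left edge.

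Without these peaks the gene counts were 15 (22.7%) in Hira-null day 15, 50 (75.8%) in WT day 15, 17 (25.8%) in Hira-null day 0 and 37 (56.1%) in WT day 0 cells, against 12.5%, 38.9%, 17.7% and 34.6% of all protein-coding genes when the same peaks were left out. Genes with a peak in all 4 lists then numbered 8 (12.1%, against 3.18% of all genes), since Eef1e1, Eif2ak4 and Eif4g3 no longer counted. Each of the 15 genes that still had a Hira-null day 15 peak had at least 1 with its midpoint in the 3′ part of the gene or within 3 kb past the end. Of all genes with such a Hira-null day 15 peak, 56.5% did. In WT day 15 cells this held for 41 of 50 genes (82.0%, against 57.1% of all genes with a peak), in Hira-null day 0 cells for 10 of 17 (58.8%, against 43.4%) and in WT day 0 cells for 30 of 37 (81.1%, against 47.8%). These shares are not like for like, since more peaks per gene make at least 1 such peak more likely. With all peaks counted, genes with a peak had a higher median number at translation factor genes in every list but Hira-null day 0. Eif5 counted in Hira-null day 15 cells by a midpoint at 51.3% of the gene, and the overlapping WT day 15 peak lay at 49.6%, in the 5′ part.

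Single peaks were compared between genotypes by overlap of at least 1 bp, with exact Clopper-Pearson intervals of 95% that cover counting error only. At day 15, 15 of 48 Hira-null peaks at translation factor genes had no WT peak (31.2%, interval 18.7% to 46.3%), against 60.8% of the Hira-null peaks in any gene window. Of WT peaks 129 of 164 had no Hira-null peak (78.7%, 71.6% to 84.7%), against 92.7%. At day 0, 12 of 27 Hira-null peaks had no WT peak (44.4%, 25.5% to 64.7%), against 64.5%, and 85 of 106 WT peaks had no Hira-null peak (80.2%, 71.3% to 87.3%), against 83.3%. Each share was below that of peaks in any gene window, which the day 0 intervals included and the day 15 intervals did not. The intervals take peaks as independent, though several often lay in the same gene, so they do not set day 15 apart from day 0. Peaks at these genes were also wider by median and more per gene, which makes an overlap of 1 bp more likely. How far this set the shares was not tested. Against whole lists, intergenic peaks included, the values were 69.2%, 91.9%, 67.2% and 72.7%, so that the WT day 0 share lay above its whole list and below its genic peaks. The shares depend on the list searched. With 7332 peaks in each list, 54.2% of Hira-null day 15 peaks had no WT peak (against 76.9% in any gene window) and 63.8% of WT day 15 peaks had no Hira-null peak (against 86.3%). With the searched list widened by 1 kb, 18.8% of Hira-null day 15 peaks (9 of 48) had no WT peak, against 53.9%.

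Between the days, 33 of 48 Hira-null day 15 peaks had no Hira-null day 0 peak (68.8%, 53.7% to 81.3%), against 78.7% of those in any gene window, and 110 of 164 WT day 15 peaks had no WT day 0 peak (67.1%, 59.3% to 74.2%), against 77.5%. By number of peaks, 14 genes had more at day 15 and 10 had more at day 0 in Hira-null cells (21.2% and 15.2%, against 9.84% and 15.5% of all genes). The Hira-null day 0 list held 2.41 times the peaks of the day 15 list overall and 1.49 times in gene windows, but 0.562 times at these genes. With Hira-null lists of equal length, 16 genes had more at day 15 and 7 had more at day 0. These were 24.2% and 10.6%, against 12.6% and 6.91% of all genes. The direction was then the same at these genes and at genes at large, so the contrast in direction depended on list length. In WT cells 32 genes had more at day 15 and 11 had more at day 0 (48.5% and 16.7%, against 27.9% and 16.5%). The ratio of WT day 0 to WT day 15 peaks was 0.646 at these genes and 0.651 in all gene windows. Eif4a2 was on the other side in WT cells, with 4 peaks at day 15 and 7 at day 0, and so was Eif2s2, with 4 at day 15 and 9 at day 0.

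Genes that host a snoRNA, a split made after the values had been seen, held 21 of 48 peaks in Hira-null day 15, 34 of 164 in WT day 15, 7 of 27 in Hira-null day 0 and 26 of 106 in WT day 0 cells. They were Eef1b2, Eef2, Eif2ak3, Eif3a, Eif4a1, Eif4a2, Eif4g1, Eif4g2 and Eif5. Of these 9 genes, 8 had a peak in Hira-null day 15, 9 in WT day 15, 5 in Hira-null day 0 and 9 in WT day 0 cells. Of the 57 other genes, 12 (21.1%), 41 (71.9%), 15 (26.3%) and 31 (54.4%) had one in the same order. Over all 269 protein-coding genes that host a snoRNA the shares were 39.8%, 71.0%, 34.6% and 69.1%. Expression was not part of these files.

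Other genes of translation, from lists by symbol, were set beside them. Of 138 ribosomal protein genes 42.8% had a peak in Hira-null day 15, 58.0% in WT day 15, 18.8% in Hira-null day 0 and 52.9% in WT day 0 cells, with a shorter median window of 15.1 kb. Of 18 genes for termination, ribosome recycling and mRNA binding 6, 12, 4 and 9 had a peak in the same order. Of 20 genes for cytosolic aminoacyl-tRNA synthetases, the enzymes that charge tRNAs, 2, 11, 4 and 9 had one, and of 9 genes for mitochondrial translation factors 2, 4, 2 and 5. Hira-null day 15 peaks were thus found at a larger share of ribosomal protein genes than of translation factor genes, and at a smaller share of synthetase genes. Over all protein-coding genes the shares were 15.2%, 39.4%, 20.3% and 35.4% in the same order of lists.

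**Figure D5:**
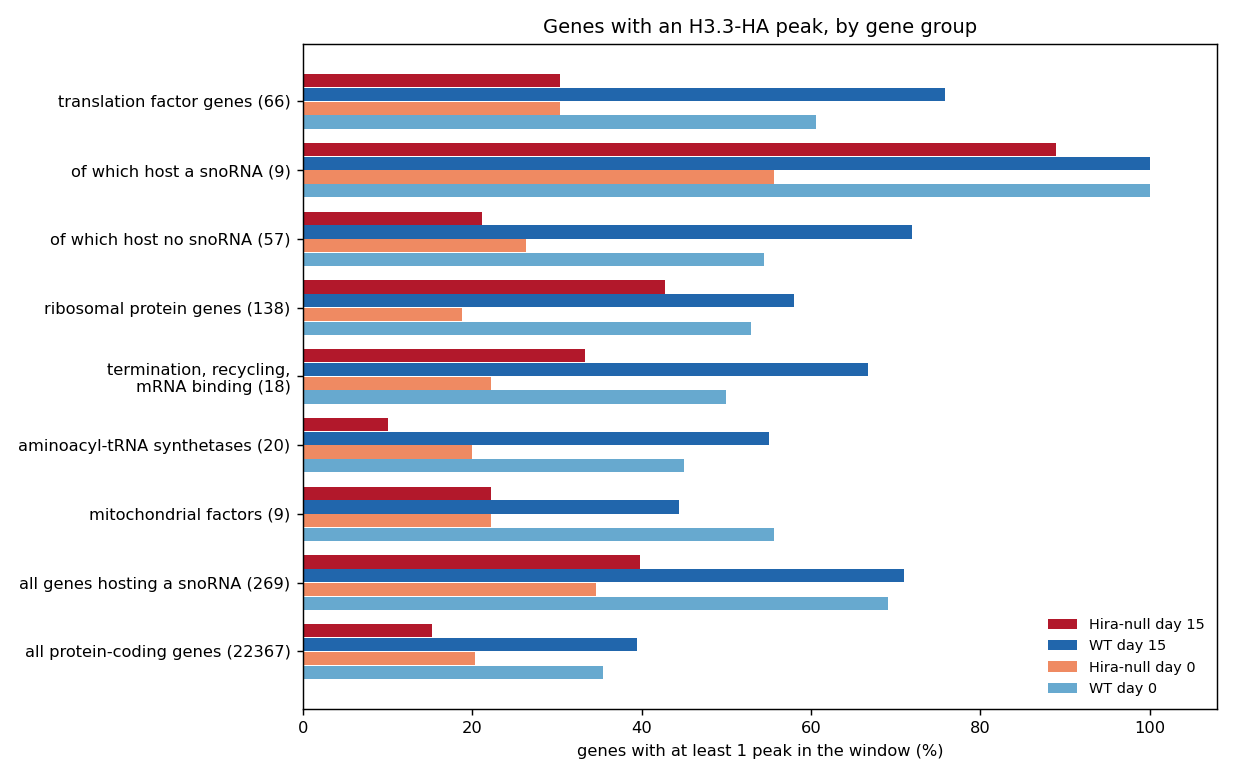
Percentage of genes with at least 1 peak in the window for the 66 translation factor genes, their snoRNA hosts and other genes, 4 further groups of translation genes, all snoRNA hosts and all protein-coding genes, with the number of genes in brackets and 1 bar per list. The Hira-null day 15 bar is at 30.3% for translation factor genes, 42.8% for ribosomal protein genes and 15.2% for all genes.

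The labels of the conditions were compared with marker genes. Of 10 embryonic stem cell markers 1 had a peak in Hira-null day 15, 2 in WT day 15, 5 in Hira-null day 0 and 9 in WT day 0 cells. Of 10 cardiomyocyte markers 1, 5, 1 and 3 had one, of 7 smooth muscle and fibroblast markers 7, 5, 2 and 2, of 4 neural markers 0, 2, 1 and 4, and of 5 endoderm markers 0, 4, 0 and 0. The day 15 lists thus differed between genotypes in more than translation factor genes, and the part of culture composition in the counts above was not tested. Peaks of H3.3 are not levels of mRNA.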

How the data were processed

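H3.3-HA ChIP and input libraries were prepared from 4 conditions, and the 4 deposited peak lists, 1 per ChIP library, were analysed. By the study's methods, Bowtie mapped the read pairs on mm9, Samtools took out duplicates, and the authors called peaks with MACS 1.4.2 at default settings. The values deposited by the authors are peak coordinates and a score per peak, with 50.0 as the lowest score and 3100 as the highest. Read depth and the treatment of reads matching several places are not given in the sources used here. Input libraries had no file used here.

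Genes came from GENCODE M1. Overlaps were computed in Python 3.11.15, checked against bedtools 2.31.1 with 0 differences, and tested on simulated data. No test between conditions was possible. The gene members, the lists of other genes, the markers and the alternatives were chosen with earlier results of these data known. Named genes were a fixed set of factor genes and every gene with a Hira-null day 15 peak or a peak in all 4 lists. To these came the 8 genes with most peaks and the 5 highest-scoring peaks in each list. The plan was to print the highest-scoring peaks of each list and paralogue pairs, but the printed set departed from it. Eif4a2 and Eif2ak4 had the highest-scoring peaks of these genes in WT day 0 and Hira-null day 0 cells. The Eif4a1 peak of WT day 15 was picked by its position upstream (score 689.7), below the one past the gene end (847). Eif5 and Eef1a1 were added after their values were seen. RefSeq promoter sequences matched 52 of 66 genes (78.8%), which is under 80%, so the planned search for promoter motifs is void. Alternatives were gene windows without flanks or to 200 bp past the end, assignment by midpoint, a score of at least 100, lists of 7332 peaks, no peaks touching other genes, no chromosomes 8 and 11, windows of 20 to 60 kb, factor subunits only, 50% overlap and lists widened by 1 kb. Leaving out peaks of repeated words was added after the data were seen.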

Additional observations from a re-analysis of the deposited data

How the results depend on the processing

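In all, 121 values were recomputed for 11 results, and all but 16 stayed within 1.5 times the count or within the interval of the share. With lists of 7332 peaks, genes with a peak numbered 20 in Hira-null day 15, 33 in WT day 15, 16 in Hira-null day 0 and 24 in WT day 0 cells (against 15.2%, 18.2%, 10.1% and 16.5% of all genes). The shares of peaks without a partner were then 54.2% for Hira-null day 15, 63.8% for WT day 15 and 68.1% for WT day 0, and 29.3% of WT day 15 peaks lay past the gene end. With a score of at least 100, 24 genes had a WT day 0 peak, 66.7% of WT day 0 peaks had no Hira-null peak, 75.0% of WT day 15 peaks had no WT day 0 peak, and 25.0% of WT day 15 peaks lay past the gene end. With the list searched widened by 1 kb, 56.7% of WT day 15 peaks had no WT day 0 peak and 18.8% of Hira-null day 15 peaks had no WT peak. With windows to 200 bp past the end, 6.85% of WT day 15 peaks had their midpoint past the end, and the gene body without flanks gives no such value. Of the 43 genes with windows of 20 to 60 kb, 12 had a peak in Hira-null day 15, 30 in WT day 15, 12 in Hira-null day 0 and 25 in WT day 0 cells (27.9%, 69.8%, 27.9% and 58.1%, against 15.9%, 43.1%, 17.8% and 36.2% of all genes of that window length), a smaller count by construction. Leaving out peaks of repeated words moved none of the 11 results beyond these bounds. No paired analysis was possible because each condition had 1 ChIP library. Leaving out a library was not possible for the same reason. With 1 library per condition and unknown depth, a gene without a peak had no enrichment past the caller's threshold, which does not show that H3.3 was absent.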
